A study of Mus musculus with 6 samples.

Results

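The genes described here carry symbols of mitochondrial ribosomal proteins, although the product of *Mrps36* is not placed in ribosome structures. They were followed in RNA-seq libraries of mouse osteoclasts, the multinucleated cells that resorb bone. Symbols alone decided which genes were taken: every gene of the deposited count table called *Mrpl* or *Mrps* followed by a number and at most a letter suffix. That rule gave 78 of 23204 genes, of which 49 carried large subunit symbols (*Mrpl*) and 29 carried small subunit symbols (*Mrps*). They lay on 17 chromosomes, with 11 on chromosome 11 and 8 on chromosome 17. A filter on low counts kept 77 of the 78 for testing, among 14040 genes in all, and only *Mrpl53* was left out.

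The 6 libraries were 3 labelled Tet2Rank–/–; Tet3aRank+/– and 3 wild type, all from the C57BL/6 strain, with both sexes in the labels of each genotype. Bone marrow cells were expanded with the growth factor M-CSF, and their adherent progeny were then kept with M-CSF and RANKL, which turns these precursors into osteoclasts. The labels do not spell out Rank or the a in Tet3a, which promoter or cell type limits the deletion, how old the mice were or whether each library came from a separate animal. TET2 and TET3 oxidise methylated cytosine in DNA. The opening number of each column name serves as the name of the library, so that the mutant label belongs to libraries 2, 3 and 5 and the wild-type label to libraries 1, 4 and 6.

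The mitochondrial ribosome translates the few respiratory chain proteins that mitochondrial DNA encodes. All of its proteins are encoded in the nucleus, made in the cytosol and imported, and they assemble with mitochondrial rRNA into a small subunit, which decodes the message, and a large subunit, which joins the amino acids. Many have a counterpart in the bacterial ribosome, and the others are found only in mitochondrial ribosomes. Osteoclasts are rich in mitochondria, and mitochondrial biogenesis accompanies their formation. The deposited table held 0 rows of the mitochondrial chromosome, so the messages that these ribosomes read were not analysed here.

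Depth reached 14267135, 9519978 and 13849747 counts in libraries labelled mutant, against 8794973, 12354672 and 12845879 counts in wild-type libraries. The column names of libraries 5 and 6 hold another number after the first, and those of the other 4 do not. This division is named the naming batch here, and each side of it has libraries of both genotypes. *Tet2* stood at 58.2, 45.5 and 52.3 CPM (counts scaled to library size) in libraries 2, 3 and 5, against 71.7, 80.9 and 79.3 CPM in libraries 1, 4 and 6. The genotypes did not overlap, but *Tet2* was far from absent under the –/– label. *Tet3* stood at 163, 141 and 156 CPM against 145, 121 and 127 CPM in the same order and was not lower. Its log2 fold change was 0.23 (standard error 0.117, edgeR adjusted p = 0.360). Neither gene matches its label in full if transcripts are lost with a gene copy. The counts are per gene and do not show whether a part of a transcript is missing. For this reason the text speaks of libraries labelled mutant.

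The promoters of 6 members are shown because the text returns to them: the member with the lowest fold change (*Mrps6*), members of both subunits that were lower and carry a known motif (*Mrps18a*, *Mrps9*, *Mrpl12*), the sole member higher in the libraries labelled mutant with no overlap (*Mrpl33*), and *Mrps11*, which faces another member head to head. Each runs 5′ to 3′ on the gene's strand, from 250 bases before the start to 50 after it, as RefSeq gives it on build GRCm38.p6, and all 6 lie on the plus strand. Capitals mark matches on either strand to NRF1 (GCGCA, any base, then GCGC), ETS (CCGGAAG) or YY1 (AAGATGGCG), motifs of nuclear factors long associated with genes of mitochondria. The positions are chr16:92058086-92058385 for *Mrps6*, chr17:46110754-46111053 for *Mrps18a*, chr1:42850983-42851282 for *Mrps9*, chr11:120484387-120484686 for *Mrpl12*, chr5:31613701-31614000 for *Mrpl33* and chr7:78782881-78783180 for *Mrps11*.
Mrps6: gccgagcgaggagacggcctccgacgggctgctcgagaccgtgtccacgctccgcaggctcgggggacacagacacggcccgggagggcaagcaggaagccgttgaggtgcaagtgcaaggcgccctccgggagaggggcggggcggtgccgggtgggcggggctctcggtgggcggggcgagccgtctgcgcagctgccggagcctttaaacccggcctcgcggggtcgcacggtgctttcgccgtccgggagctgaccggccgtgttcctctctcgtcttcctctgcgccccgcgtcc
Mrps18a: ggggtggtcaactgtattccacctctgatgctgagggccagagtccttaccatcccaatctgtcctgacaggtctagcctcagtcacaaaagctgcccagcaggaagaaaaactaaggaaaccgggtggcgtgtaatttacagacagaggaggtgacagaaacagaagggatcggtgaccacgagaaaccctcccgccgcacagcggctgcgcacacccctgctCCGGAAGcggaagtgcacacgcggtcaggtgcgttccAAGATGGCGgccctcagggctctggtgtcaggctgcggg
Mrps9: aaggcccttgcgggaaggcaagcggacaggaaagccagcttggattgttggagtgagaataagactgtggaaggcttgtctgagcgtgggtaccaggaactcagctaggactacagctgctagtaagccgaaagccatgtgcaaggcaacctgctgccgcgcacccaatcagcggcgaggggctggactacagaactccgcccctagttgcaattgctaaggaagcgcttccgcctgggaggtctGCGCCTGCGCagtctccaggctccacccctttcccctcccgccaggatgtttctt
Mrpl12: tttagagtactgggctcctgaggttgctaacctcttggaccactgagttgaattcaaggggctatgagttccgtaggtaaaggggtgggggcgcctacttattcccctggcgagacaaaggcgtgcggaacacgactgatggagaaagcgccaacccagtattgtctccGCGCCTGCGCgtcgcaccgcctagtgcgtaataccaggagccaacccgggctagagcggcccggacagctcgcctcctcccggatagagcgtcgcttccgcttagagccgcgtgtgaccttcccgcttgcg
Mrpl33: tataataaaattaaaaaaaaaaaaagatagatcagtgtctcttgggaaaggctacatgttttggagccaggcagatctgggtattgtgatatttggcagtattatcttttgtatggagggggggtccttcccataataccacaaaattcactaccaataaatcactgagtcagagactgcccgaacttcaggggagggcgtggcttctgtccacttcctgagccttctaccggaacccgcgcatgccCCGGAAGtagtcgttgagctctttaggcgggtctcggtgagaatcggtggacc
Mrps11: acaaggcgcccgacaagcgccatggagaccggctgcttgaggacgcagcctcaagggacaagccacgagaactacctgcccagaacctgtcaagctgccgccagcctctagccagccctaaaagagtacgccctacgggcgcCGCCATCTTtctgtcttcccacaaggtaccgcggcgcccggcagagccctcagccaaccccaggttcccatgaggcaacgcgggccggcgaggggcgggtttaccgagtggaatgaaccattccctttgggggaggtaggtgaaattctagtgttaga

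In these sequences *Mrps6* has no capitals, *Mrps18a* has an ETS match before its start and a YY1 match just after it, and *Mrps9* and *Mrpl12* each have an NRF1 match on the minus strand. *Mrpl33* has an ETS match beside its start and *Mrps11* a YY1 match on the minus strand. Of the 78 members, 69 had a promoter in the RefSeq table, and at least 1 of the 3 motifs occurred in 40 of them (58.0%), against 27.9% of the promoters of tested genes. The ETS motif was found in 25 members (36.2%), against 17.6% of 10762 promoters of tested genes and 9.12% of all 27025 promoters. The NRF1 motif was found in 13 (18.8%), against 10.2% and 4.78%, and the YY1 motif in 8 (11.6%), against 3.09% and 1.49%. No match to one of these motifs overlapped a match to another in any member. The E-box CACGTG was found in 5 (7.25%) against 10.2% of tested genes, the GC box GGGCGG in 34 (49.3%) against 63.9%, CCAAT in 27 (39.1%) against 38.8% and TATAAA in 4 (5.80%) against 7.22%. A match is a run of letters and not a measured site. The median GC content was 58.3% in members and 60.7% in tested genes, with 21 and 20 CpG pairs per promoter.

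The comparison of the genotypes asks whether transcripts of the mitochondrial ribosome differ in osteoclasts labelled as lacking *Tet2* and a copy of *Tet3*. Nearly all stood lower in those libraries: 72 of the 77 tested members had a log2 fold change below 0, against 53.2% of all tested genes. The members' median was -0.38 (quartiles -0.52 and -0.24, range -1.04 to 0.14), against -0.03 over all tested genes (quartiles -0.28 and 0.25). At an unadjusted p under 0.05 in edgeR, 34 members were lower and 0 higher, against 19.6% of tested genes in either direction and 12.4% lower. With genotype as the only term, 0 of 77 members passed an edgeR adjusted p of 0.05, which 10 genes passed in all (0.0712%, and 0.0214% lower), and the smallest value of a member was 0.0581. With the naming batch as a second term, 17 members fell and 0 rose, while 8.68% of all tested genes passed in either direction and 5.60% fell. Their adjusted p-values in edgeR were between 0.0162 and 0.0467 and their log2 fold changes in that fit between -1.04 and -0.44. DESeq2, an alternative count test with genotype only, called 7 of the same 17 lower and no other member (6 with small subunit symbols and 1 with a large one), against 5.31% of tested genes called lower.

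**Figure D1:**
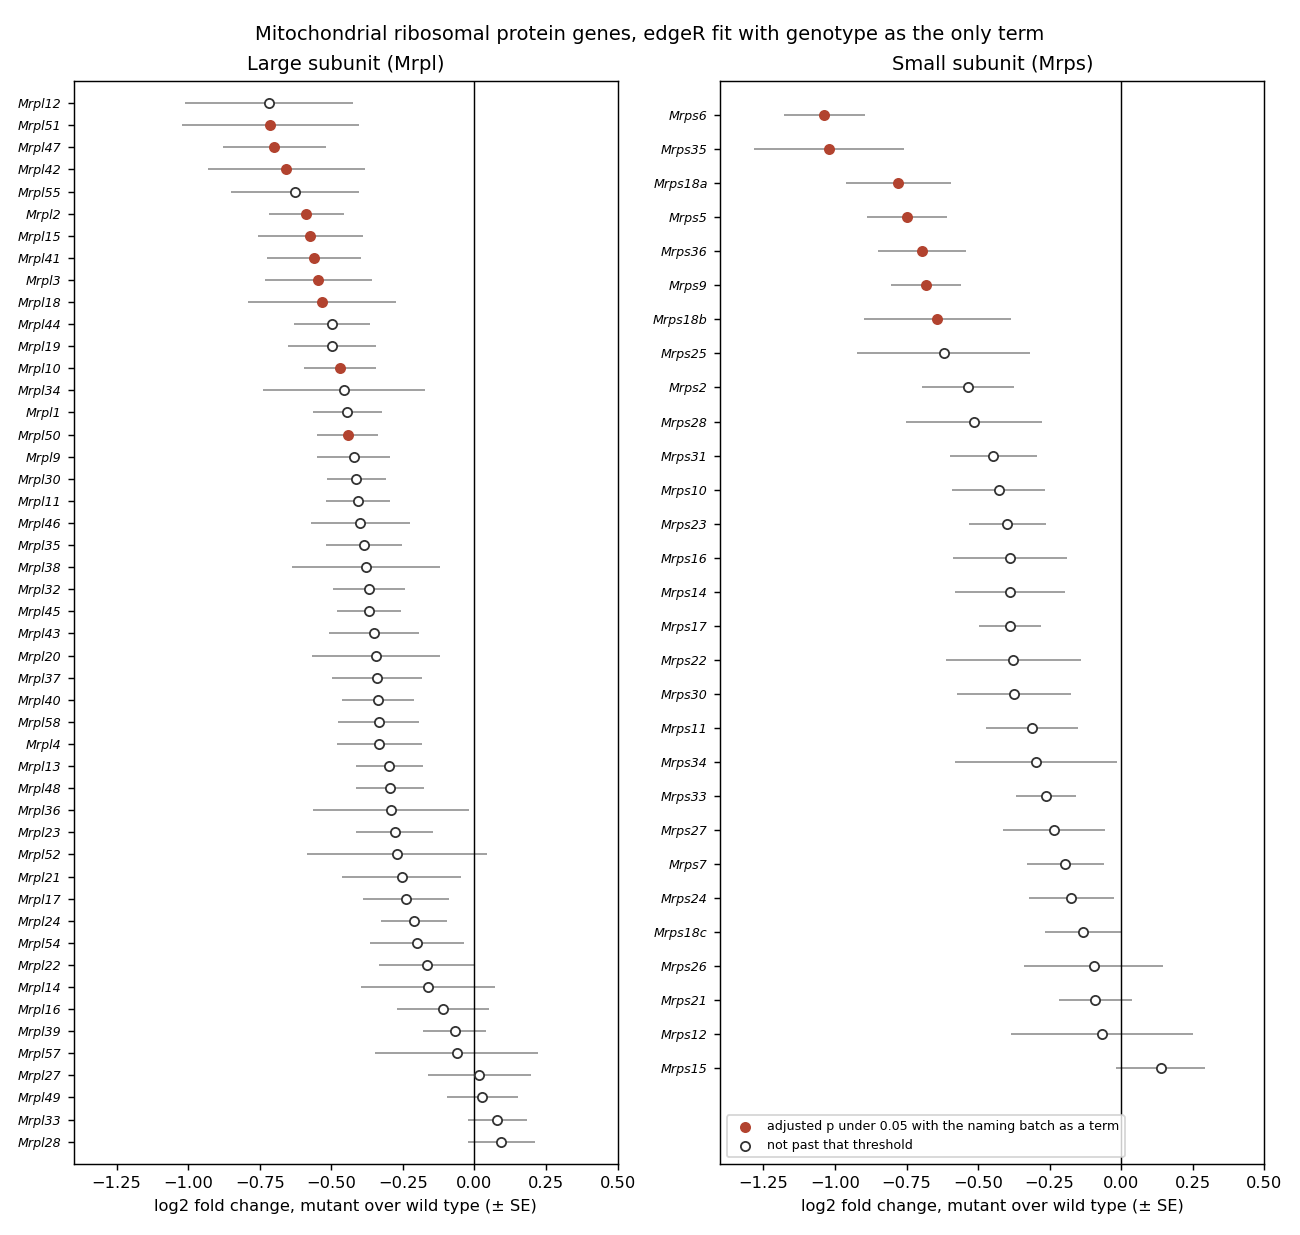
Log2 fold change of each tested member, libraries labelled mutant over wild type, with its standard error, from the fit with genotype as the only term; large subunit symbols left, small subunit symbols right. Filled points are the 17 members past an adjusted p of 0.05 when the naming batch is a second term; 72 of 77 points lie left of 0.

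The libraries themselves show the same ordering. The 78 genes together took 0.215%, 0.260% and 0.243% of all counts in libraries 2, 3 and 5, against 0.292%, 0.289% and 0.357% in libraries 1, 4 and 6. The genotypes did not overlap, and the means were 0.239% ± 0.0223 in libraries labelled mutant and 0.313% ± 0.0386 in wild-type libraries (SD, n = 3 each). Exact binomial 95% intervals, which cover counting error only, were narrow beside these gaps, from 0.213% to 0.218% in library 2 and from 0.354% to 0.361% in library 6. Because these are bulk libraries, fewer cells rich in mitochondria and less of these transcripts in each cell cannot be told apart.

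The extremes sat in single libraries. Library 6 held the highest value of 62 of the 77 members, against 24.9% of all tested genes, and library 2 held the lowest value of 48, against 25.4%. Among the 3 libraries labelled mutant, library 2 was the lowest for 50 members, library 5 the highest for 38 and library 3 the highest for 28. For 39 members all 3 libraries labelled mutant lay below all 3 wild-type libraries, against 16.9% of tested genes, and for *Mrpl33* alone they lay above, against 9.91%. Most members were lower on both sides of the naming batch. Within libraries 1 to 4, 67 members were below 0 with a median of -0.30, against 54.9% of tested genes below 0, and library 5 was below library 6 for 76 members with a median log2 ratio of -0.50, against 49.0%. Whether the genotype difference itself differs between the naming batches could be fitted in edgeR only with 1 library per genotype on one side. That fit called 0 of 14040 genes and gave 129, or 0.919%, an unadjusted p below 0.05, so nothing is drawn from it. *Mrpl34*, the counterpart of bacterial L34, was picked out by that fit and is given for description only. It had 22.8, 36.8 and 22.8 CPM in libraries 2, 3 and 5, against 31.4, 30.4 and 50.9 CPM in libraries 1, 4 and 6. Its log2 difference was -1.14 between libraries 5 and 6 and -0.05 within libraries 1 to 4, and its log2 fold change over all libraries was -0.46, or -0.16 without library 6. Fits that leave out library 5 or 6 have genotype as the only term. They keep a single library on that side of the naming batch, so genotype and naming batch are partly mixed in their values.

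**Figure D2:**
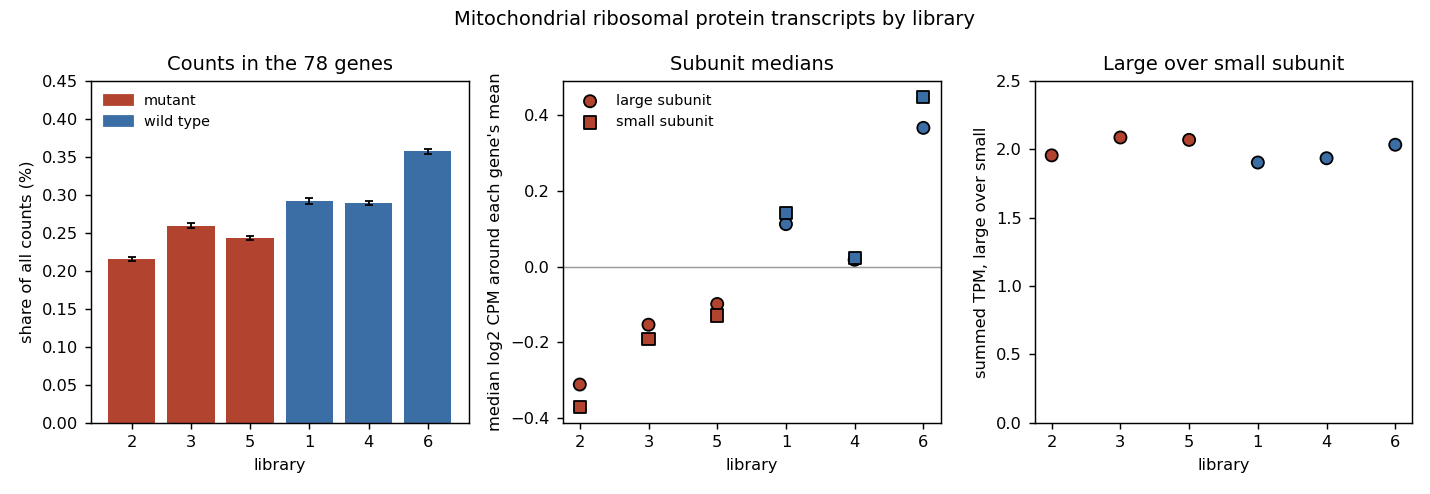
Left, share of all counts in the 78 genes, in percent, with exact binomial 95% intervals; middle, median log2 CPM of the members of each subunit relative to the mean of each gene; right, ratio of summed TPM, large over small subunit. Red marks libraries 2, 3 and 5, labelled mutant, and blue libraries 1, 4 and 6, wild type; shares run from 0.215% to 0.260% in the red bars and from 0.289% to 0.357% in the blue ones, while the ratios run from 1.96 to 2.09 in red and from 1.90 to 2.03 in blue.

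Small subunit members gave the lowest values of all. *Mrps6*, the counterpart of bacterial S6, had 16.2, 20.2 and 22.2 CPM in libraries 2, 3 and 5, against 40.8, 38.6 and 40.7 CPM in libraries 1, 4 and 6. It stood at 48.7% of wild type, and the 3 wild-type libraries lay close together, well above the others. Its log2 fold change was -1.04 (standard error 0.143, edgeR adjusted p = 0.0581), and it fell with the naming batch as a term (edgeR adjusted p = 0.0162). *Mrps6* shares 159 exon bases with *Slc5a3*, which encodes a sodium and myo-inositol cotransporter, and 305 with *Gm49711*, both on its own strand. *Slc5a3* stood at 23.5, 31.5 and 32.5 CPM in libraries labelled mutant, against 81.0, 75.4 and 59.9 CPM in wild-type libraries, a log2 fold change of -1.31 (standard error 0.176, edgeR adjusted p = 0.0555, and 0.0165 with the naming batch). How the authors counted reads in the shared bases is not given in the sources used here, and the part of *Slc5a3* reads in the *Mrps6* value was not tested. The *Mrps6* promoter printed above holds none of the 3 motifs.

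*Mrps35*, a small subunit protein with no bacterial counterpart, had 23.7, 32.9 and 34.4 CPM in libraries 2, 3 and 5, against 55.4, 45.3 and 83.9 CPM in libraries 1, 4 and 6. The genotypes did not overlap, but library 6 stood far above the other wild-type libraries, and the log2 fold change of -1.02 had an SE of 0.263 (edgeR adjusted p = 0.116, and 0.0253 with the naming batch). *Mrps5*, the counterpart of bacterial S5, had 29.1, 33.3 and 36.8 CPM against 53.2, 50.3 and 63.3 CPM. These groups also lay apart, with a log2 fold change of -0.75 (standard error 0.139, edgeR adjusted p = 0.0786, and 0.0174 with the naming batch). *Mrps9*, the counterpart of bacterial S9, had 38.2, 35.3 and 34.2 CPM in libraries labelled mutant and 62.2, 49.4 and 61.2 CPM in wild-type libraries. Its libraries labelled mutant were nearly level, all below the lowest wild-type one, and the log2 fold change was -0.68 (standard error 0.123, edgeR adjusted p = 0.0770, and 0.0299 with the naming batch). *Mrps35*, *Mrps5* and *Mrps9* thus fell with the naming batch as a term and missed the threshold without it.

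**Figure D3:**
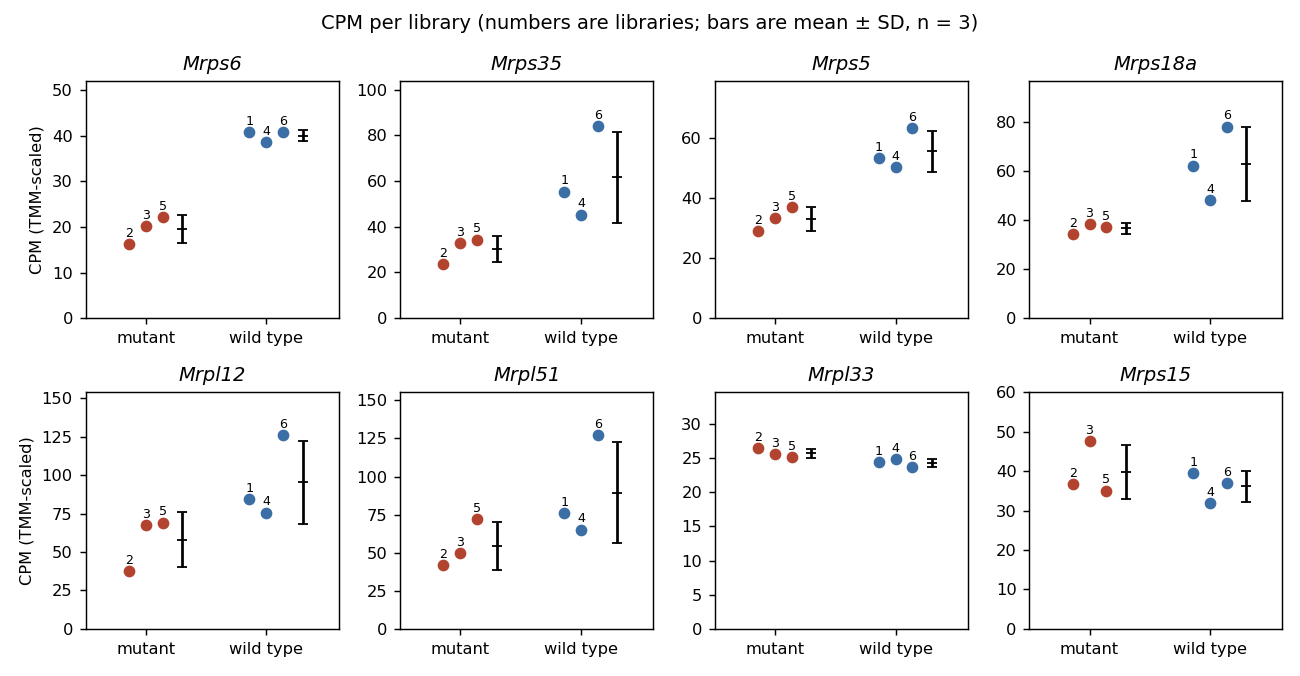
CPM of 8 members in each library, with the library number above each point and the mean ± SD of 3 libraries beside it; libraries labelled mutant are left, wild type right, and each panel has its own scale from 0. In *Mrps6*, *Mrps35*, *Mrps5*, *Mrps18a* and *Mrpl12* every library labelled mutant lies below every wild-type one, *Mrpl51* and *Mrps15* overlap, and *Mrpl33* is slightly higher in the libraries labelled mutant.

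The 3 genes named *Mrps18* are paralogues whose proteins sit at different places in the ribosome. *Mrps18a*, whose protein is placed in the large subunit by structures of the mammalian mitochondrial ribosome, had 34.2, 38.3 and 37.2 CPM in libraries 2, 3 and 5, against 62.1, 48.2 and 77.9 CPM in libraries 1, 4 and 6. The groups did not overlap, its log2 fold change was -0.78 (standard error 0.182, edgeR adjusted p = 0.103), and it fell with the naming batch as a term (edgeR adjusted p = 0.0342). *Mrps18b*, a small subunit protein with no bacterial counterpart, had 20.8, 29.3 and 37.5 CPM in libraries labelled mutant, against 39.4, 39.6 and 57.7 CPM in wild-type libraries. Its library 5 came close to the lowest wild-type library, and its log2 fold change was -0.64 (standard error 0.257, edgeR adjusted p = 0.238, and 0.0444 with the naming batch). Without library 2 the value was -0.41 and without library 6 it was -0.42. *Mrps18c*, the counterpart of bacterial S18, had 23.6, 19.9 and 19.7 CPM against 25.2, 21.8 and 22.3 CPM. These groups overlapped, with a log2 fold change of -0.13 (standard error 0.135, edgeR adjusted p = 0.692, and 0.649 with the naming batch). The differences between the 3 paralogues were not tested.

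*Mrps36* carries a small subunit symbol, but its product is known as a part of the 2-oxoglutarate dehydrogenase complex and is not placed in ribosome structures. It had 19.05, 21.8 and 24.4 CPM in libraries labelled mutant, against 36.2, 30.2 and 39.4 CPM in wild-type libraries, with no overlap. Its log2 fold change was -0.70 (standard error 0.153, edgeR adjusted p = 0.0954, and 0.0283 with the naming batch). *Mrps12*, the counterpart of the bacterial decoding protein S12, showed no common direction, with 16.3, 35.3 and 16.7 CPM against 25.9, 22.8 and 22.7 CPM. Its library 3 was the highest of the 6 and libraries 2 and 5 the lowest, and the log2 fold change of -0.07 (standard error 0.317) turned to 0.15 without library 2, to 0.11 without library 5 and to 0.087 within libraries 1 to 4, while it was -0.53 without library 3. *Mrps21*, the counterpart of bacterial S21, overlapped between genotypes, at 40.4, 33.0 and 39.2 CPM against 39.7, 36.2 and 44.1 CPM. *Mrps26*, which has no bacterial counterpart, had 23.7, 37.1 and 29.3 CPM against 29.3, 25.2 and 41.7 CPM, and its log2 fold change of -0.10 was 0.16 within libraries 1 to 4.

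*Mrps15*, the counterpart of bacterial S15, had the highest log2 fold change of any member, 0.14 (standard error 0.156, edgeR adjusted p = 0.728). It had 36.7, 47.6 and 35.1 CPM in libraries labelled mutant, against 39.5, 31.9 and 37.0 CPM in wild-type libraries, so that library 3 alone stood above the rest, and without library 3 the value was -0.012. Among the small subunit symbols, 28 of 29 members had a log2 fold change below 0, with a median of -0.39. Of these, 13 were lower at an unadjusted p under 0.05 in edgeR, against 12.4% of all tested genes. With no overlap 15 were lower, against 16.9%, and 7 fell with the naming batch as a term, against 5.60%.

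In the large subunit, *Mrpl12* had the lowest log2 fold change, -0.72. Its protein is the counterpart of the bacterial stalk protein L7/L12, which recruits translation factors. It had 37.6, 67.5 and 69.1 CPM in libraries 2, 3 and 5, against 84.6, 75.6 and 126 CPM in libraries 1, 4 and 6. Library 2 was far below the other libraries labelled mutant and library 6 far above the other wild-type ones, and the difference had an SE of 0.294 (edgeR adjusted p = 0.249, and 0.0945 with the naming batch). Without library 2 the log2 fold change of *Mrpl12* was -0.45 and without library 6 it was -0.44, above those of *Mrpl47* in the same fits, -0.58 and -0.53. Within libraries 1 to 4 both genes were at -0.61. *Mrpl12* did not pass in either fit, although its groups did not overlap.

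*Mrpl51*, which has no bacterial counterpart, had 41.8, 49.8 and 72.1 CPM in libraries labelled mutant, against 75.8, 65.1 and 127 CPM in wild-type libraries. The groups overlapped, since library 5 stood above library 4, but within each naming batch the libraries labelled mutant were below the wild-type ones. Its log2 fold change was -0.71 (standard error 0.311, edgeR adjusted p = 0.278, and 0.0243 with the naming batch). *Mrpl42*, also without a bacterial counterpart, had the same pattern, with 30.04, 36.8 and 49.1 CPM against 54.4, 45.5 and 82.8 CPM, and a log2 fold change of -0.66 (standard error 0.275, edgeR adjusted p = 0.259, and 0.0345 with the naming batch). Without library 6 the log2 fold changes of *Mrpl51* and *Mrpl42* were both -0.35, in a fit that held library 5 without its wild-type counterpart. Within libraries 1 to 4 *Mrpl42* was at -0.58. *Mrpl47*, the counterpart of bacterial L29, had 13.5, 15.8 and 16.7 CPM against 24.1, 20.8 and 29.9 CPM without overlap, and a log2 fold change of -0.70 (standard error 0.180, edgeR adjusted p = 0.116, and 0.0404 with the naming batch). It shares 616 exon bases with *Ndufb5*, a complex I gene on the opposite strand, whose own log2 fold change was -0.58 (standard error 0.145).

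*Mrpl3*, the counterpart of bacterial L3, had 43.1, 50.7 and 60.1 CPM in libraries labelled mutant, against 64.3, 67.9 and 92.2 CPM in wild-type libraries. The groups lay apart by a narrow margin, with a log2 fold change of -0.54 (standard error 0.187, edgeR adjusted p = 0.182, and 0.0326 with the naming batch). The value was -0.35 without library 6 and -0.49 within libraries 1 to 4. *Mrpl44*, whose product resembles ribonuclease III and has no bacterial ribosomal counterpart, had 25.9, 25.3 and 27.5 CPM against 35.3, 32.7 and 43.1 CPM. Its libraries labelled mutant were level and below every wild-type one, and its log2 fold change of -0.50 (standard error 0.134) just missed the threshold with the naming batch (edgeR adjusted p = 0.0501). It shares 126 exon bases with *Wdfy1* on the opposite strand, which had a log2 fold change of -1.20 (standard error 0.189). The other large subunit members that fell with the naming batch as a term were *Mrpl2*, *Mrpl15*, *Mrpl41*, *Mrpl18*, *Mrpl10* and *Mrpl50*, with log2 fold changes from -0.59 to -0.44 in the genotype fit. Among these, *Mrpl18* was at -0.53, or -0.21 without library 6. Of the 17 members of both subunits that fell, 14 had no overlap between genotypes, and the others were *Mrpl51*, *Mrpl42* and *Mrpl18*.

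A few large subunit members stood level. *Mrpl33*, the counterpart of bacterial L33, had 26.4, 25.6 and 25.1 CPM in libraries labelled mutant, against 24.4, 24.9 and 23.6 CPM in wild-type libraries. All 6 libraries lay close together, and its log2 fold change was 0.08 (standard error 0.102, edgeR adjusted p = 0.765). *Mrpl28*, the counterpart of bacterial L28, had 46.5, 54.8 and 47.6 CPM against 48.5, 41.6 and 49.4 CPM, a log2 fold change of 0.09 (standard error 0.117). *Mrpl27*, the counterpart of bacterial L27, had 35.3, 28.1 and 37.1 CPM against 34.9, 26.4 and 38.2 CPM, and each library labelled mutant had a wild-type library near it. *Mrpl49*, which has no bacterial counterpart, had 24.7, 26.5 and 25.7 CPM against 23.8, 23.2 and 28.4 CPM, a log2 fold change of 0.03 (standard error 0.125). All 4 had adjusted p-values of 0.760 to 0.982 in edgeR. With *Mrps15* these were the 5 members above 0, and the fold changes of 9 members lay between -0.1 and 0.1. Of the 48 tested members with large subunit symbols, 44 were below 0, with a median of -0.36. At an unadjusted p under 0.05 in edgeR 21 were lower, against 12.4% of all tested genes. With no overlap 24 were lower, against 16.9%, and 10 fell with the naming batch as a term, against 5.60%.

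Other members with negative log2 fold changes did not pass in either fit. *Mrpl55*, the counterpart of bacterial L31, had 12.0, 12.2 and 15.9 CPM in libraries labelled mutant, against 16.9, 18.7 and 26.3 CPM in wild-type libraries, with no overlap. Its log2 fold change was -0.63 (standard error 0.223, edgeR adjusted p = 0.193, and 0.0512 with the naming batch). *Mrps25*, a small subunit protein with no bacterial counterpart, had 14.9, 20.99 and 31.0 CPM against 32.0, 27.4 and 43.5 CPM and overlapped, with a log2 fold change of -0.62 (standard error 0.302). It shares 4590 exon bases with *Nr2c2* on the opposite strand, whose log2 fold change was -0.20 (standard error 0.107). *Mrps30*, whose protein structures place in the large subunit despite its symbol, had 22.8, 25.4 and 32.5 CPM against 34.3, 28.3 and 41.9 CPM, and library 5 stood between the wild-type values. *Mrpl58*, a peptidyl-tRNA hydrolase built into the large subunit, had 22.4, 25.7 and 21.9 CPM against 30.9, 25.2 and 32.1 CPM, a log2 fold change of -0.33 (standard error 0.140), with library 3 just above library 4. *Mrpl24*, the counterpart of bacterial L24, had 72.8, 74.2 and 59.0 CPM against 81.3, 81.0 and 75.9 CPM, a log2 fold change of -0.21 (standard error 0.117) without overlap. Single libraries moved several of these values. Without library 6, *Mrpl55* was at -0.40, *Mrps25* at -0.39 and *Mrps30* at -0.20. Without library 2, *Mrps25* was at -0.36 and *Mrps30* at -0.23, and without library 5 *Mrps25* was at -0.94 and *Mrpl24* at -0.12.

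*Mrpl53*, which has no bacterial counterpart, had 2, 4 and 2 counts in libraries 2, 3 and 5, against 5, 2 and 4 counts in libraries 1, 4 and 6, and was not tested. It shares 695 exon bases (88.0% of its exon length) with *Gm42688* on the same strand, which had 62, 53 and 50 counts in libraries labelled mutant and 38, 48 and 77 in wild-type libraries. The counts listed for *Mrpl53* may therefore miss reads in the shared bases, which was not tested.

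The medians of both subunits were below 0. The median log2 fold change was -0.36 for large and -0.39 for small subunit symbols, a difference of 0.03. Without library 6 the large subunit median was -0.23 and the small -0.28, and without library 3 the difference between them was 0.075. Within libraries 1 to 4 the large subunit median was -0.28 and the small -0.33. Placing *Mrps18a* and *Mrps30* in the large subunit, where structures put their proteins, and leaving out *Mrps36* gave -0.37 for 50 and -0.39 for 26 members. With this placement DESeq2 called 2 of the 50 and 4 of the 26 lower, against 5.31% of all tested genes. With the naming batch as a term 11 and 5 fell, against 5.60%. Members with a bacterial counterpart had a median of -0.39 (46 members) and those found only in mitochondria -0.37 (30 members). Relative to the mean of each gene, the median log2 CPM of the large subunit was -0.31, -0.15 and -0.10 in libraries 2, 3 and 5, against 0.11, 0.02 and 0.37 in libraries 1, 4 and 6. For the small subunit it was -0.37, -0.19 and -0.13, against 0.14, 0.02 and 0.45. The subunits kept the same order of libraries, with library 2 lowest and library 6 highest in both.

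Levels were compared between genes as TPM, counts divided by the length of each gene's principal transcript and scaled to a common total. Summed over the large subunit, TPM came to 2365, 3013 and 2843 in libraries 2, 3 and 5, against 3189, 3047 and 4101 in libraries 1, 4 and 6. Summed over the small subunit it came to 1209, 1444 and 1374, against 1675, 1574 and 2016. The large over small ratio was 1.96, 2.09 and 2.07 in libraries labelled mutant, against 1.90, 1.94 and 2.03 in wild-type libraries. The genotypes overlapped, although on each side of the naming batch the ratio was higher in the libraries labelled mutant. Its log2 value averaged 1.03 ± 0.0508 in libraries labelled mutant and 0.97 ± 0.0497 in wild-type libraries (SD, n = 3 each), a difference of 0.06 close to the spread between libraries. With the exon union as the length the difference was 0.00 to 2 decimals, and the log2 ratio was 1.08 in library 5, below 1.13 in library 6. No shift between the subunits that held with both lengths was detectable in these libraries.

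The levels of single members spread widely around a median of 48.1 TPM over the 6 libraries. *Mrpl52*, which has no bacterial counterpart, was the highest at 236 TPM, followed by *Mrps21* at 170, *Mrpl42* at 160, *Mrpl20* at 127, *Mrpl12* at 125 and *Mrps18a* at 120 TPM. The order of the mean levels differs between the genotypes, and the order within single libraries was not compared. *Mrpl42* and *Mrpl12* both had their highest CPM in library 6. By these means *Mrps21* stood above *Mrpl42* in libraries labelled mutant, at 165 and 125 TPM. In wild-type libraries it stood below, at 175 and 195 TPM. *Mrpl12* was at 95.3 TPM in libraries labelled mutant, below *Mrpl20* at 112 TPM, and at 155 TPM in wild-type libraries, above *Mrpl20* at 141 TPM. The order also depends on the length used: *Mrpl33* ranked 9 by principal transcript and 76 by exon union, and *Mrpl42* ranked 3 and 41. The log2 fold changes of these 6 members ran from -0.78 to -0.09. *Mrpl52* had 28.3, 62.5 and 34.5 CPM in libraries labelled mutant, against 50.3, 40.6 and 59.8 CPM in wild-type libraries, a log2 fold change of -0.27 (standard error 0.314) with library 3 the highest of the 6. It was -0.68 without library 3, -0.02 without library 2, -0.11 without library 6 and 0.00 within libraries 1 to 4. *Mrpl20*, the counterpart of bacterial L20, had 30.5, 40.6 and 48.3 CPM against 42.7, 44.99 and 63.7 CPM, a log2 fold change of -0.34 (standard error 0.225), and overlapped. Without library 2 it was -0.15 and without library 6 it was -0.12. The coefficient of variation of CPM within a genotype had a median of 11.8% over members in libraries labelled mutant and 13.7% in wild-type libraries, and the log2 fold changes of the 77 members had an SD of 0.23 against a median SE of 0.159.

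Some members overlap neighbouring genes. Of the 78 members, 33 share exon bases with another gene and 28 with a gene on the opposite strand. The 45 members with no shared exon base had a median log2 fold change of -0.39, with 43 below 0. Of them 10 fell with the naming batch as a term, against 5.60% of all tested genes. *Mrpl46* and *Mrps11*, one from each subunit, face each other on chromosome 7, with promoter windows that share 141 bases and exons that share 173. *Mrpl46* had 14.8, 15.0 and 17.6 CPM in libraries labelled mutant, against 19.5, 18.1 and 24.9 CPM in wild-type libraries, and a log2 fold change of -0.40 (standard error 0.173, edgeR adjusted p = 0.276). *Mrps11* had 14.8, 13.2 and 13.03 CPM against 15.2, 19.4 and 16.5 CPM, and a log2 fold change of -0.31 (standard error 0.161, edgeR adjusted p = 0.358). Without library 6 *Mrpl46* was at -0.23, and without library 4 *Mrps11* was at -0.18. Neither gene of this pair passed in either fit, and in both every library labelled mutant lay below every wild-type library.

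Log2 fold changes were set beside the promoter motifs. The median was -0.37 in the 13 with an NRF1 match and -0.39 in the 55 without, -0.33 in the 8 with a YY1 match and -0.38 in the 60 without, and -0.27 in the 24 with an ETS match and -0.39 in the 44 without. These are descriptions of the tested members that have a promoter entry, and the differences were not tested. Of the sequences shown, the ETS match of *Mrpl33* stood beside a level gene and that of *Mrps18a* beside a gene that fell with the naming batch as a term.

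Other parts of mitochondrial protein synthesis were read from the same fit, from lists written with earlier results of these data known. With genotype as the only term, 0 genes of these lists passed in edgeR. Values in brackets are log2 fold changes of that fit, and genes are said to fall where they passed with the naming batch in the fit. For all tested genes the shares beside which these counts stand are 12.4% lower at an unadjusted p under 0.05, 5.31% called lower by DESeq2 and 5.60% that fell. The 5 further proteins of the mitochondrial ribosome had a median of -0.29, with 2 lower at an unadjusted p under 0.05 in edgeR and 0 called by DESeq2. *Ptcd3* (-0.59), a small subunit protein with pentatricopeptide repeats, fell (edgeR adjusted p = 0.0406).

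Of 16 tested translation factors 14 were below 0, with a median of -0.45, 7 at an unadjusted p under 0.05 in edgeR and 5 called lower by DESeq2. The 3 that fell were *Gfm1* (-0.85), an elongation factor, *Lrpprc* (-0.78), which stabilises mitochondrial messages, and *Guf1* (-0.66), a GTPase related to bacterial LepA. Of 20 tRNA synthetases and amidotransferase subunits, which charge mitochondrial tRNAs, 18 were below 0, with a median of -0.44, 9 at an unadjusted p under 0.05 and 1 called lower by DESeq2. *Gatb* (-0.67) and *Iars2* (-0.44) fell, and these counts of 1 and 2 in 20 are near the shares over all tested genes. Of 27 assembly factors, which build the subunits and modify their rRNA, 19 were below 0, with a median of -0.17. At an unadjusted p under 0.05, 7 of these were lower and 1 higher in edgeR, and DESeq2 called 3 lower and 1 higher. *Trmt2b* (-0.80), *Afg3l2* (-0.79) and *Noa1* (-0.75) fell. Of 17 genes that copy and transcribe mitochondrial DNA or process its RNA 14 were below 0, with a median of -0.29, 7 at an unadjusted p under 0.05 and 2 called lower by DESeq2. *Hsd17b10* (-0.94) and *Tfb2m* (-0.53) fell.

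**Figure D4:**
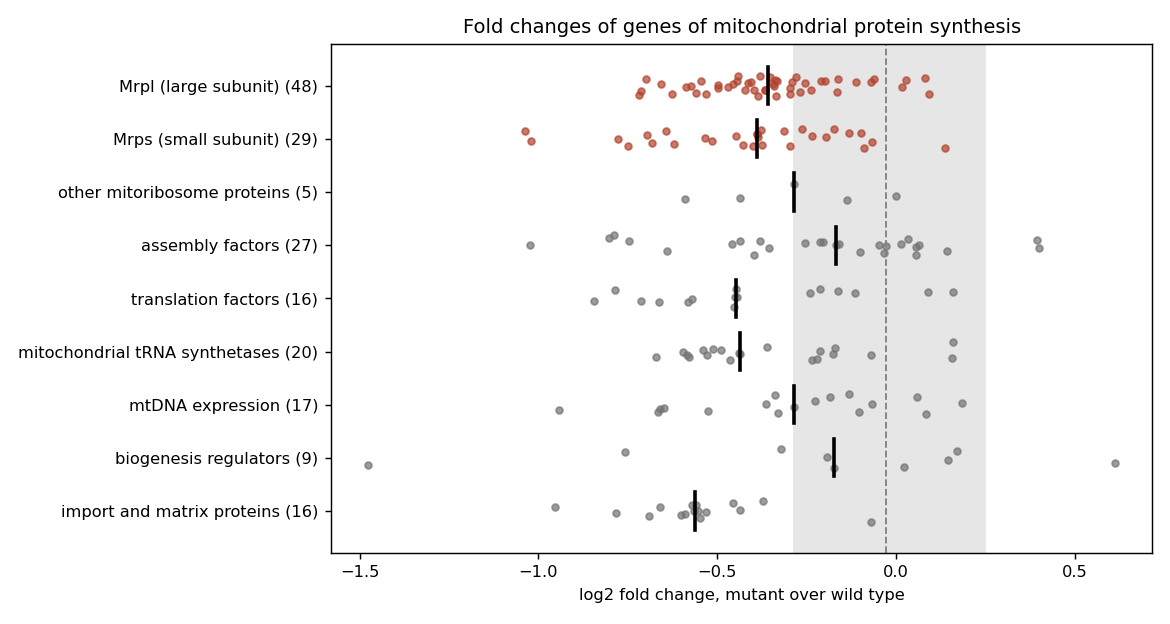
Log2 fold change, libraries labelled mutant over wild type, of every tested gene in 9 lists, with the number of genes in brackets and a bar at each median; points are spread vertically for visibility. The dashed line and grey band are the median and quartiles of all 14040 tested genes, and the medians of the large and small subunit symbols are -0.36 and -0.39.

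Genes of import, the mitochondrial membranes and the matrix had 16 of 16 below 0 and a median of -0.56, 11 at an unadjusted p under 0.05 in edgeR and 5 called lower by DESeq2. Among the 5 that fell with the naming batch as a term were *Cs*, citrate synthase, at -0.95, *Vdac1*, the outer membrane channel, at -0.66, *Hspe1*, the matrix co-chaperonin, at -0.60 and *Timm44*, of the import motor, at -0.59. Nuclear genes of the respiratory chain and ATP synthase, chosen by symbol, had a median of -0.68, with 85 of 88 below 0 and 44 that fell in that fit. Cytosolic ribosomal protein genes, also chosen by symbol, had a median of -0.17, with 80 of 82 below 0. Only 2 of them fell, a smaller share than the 5.60% of all tested genes, but other measures differed. DESeq2 called 10 lower, against 5.31% of all tested genes, and 31 were lower with no overlap, against 16.9%. At an unadjusted p under 0.05 in edgeR 12 were lower, against 12.4%. The mitochondrial ribosome's median of -0.38 thus lay between these families, and no test between them was made. The regulators of mitochondrial biogenesis showed no common direction, with 5 of 9 below 0, a median of -0.17 and 0 past the threshold in either edgeR fit, 2 lower at an unadjusted p under 0.05 and 1 called lower by DESeq2. *Yy1*, which binds the YY1 motif, had a log2 fold change of 0.02 (standard error 0.128), and *Esrra*, an orphan nuclear receptor, -0.76 (standard error 0.262, edgeR adjusted p = 0.184, and 0.0867 with the naming batch). *Ppargc1b*, the coactivator PGC-1β, was picked out after its values were seen, with 10.2, 30.6 and 34.8 CPM in libraries labelled mutant, against 57.0, 48.5 and 104 CPM in wild-type libraries, and a log2 fold change of -1.48 (standard error 0.501, edgeR adjusted p = 0.178, and 0.0523 with the naming batch).

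Markers of cell type were read as well. Summed osteoclast, macrophage and lymphocyte markers did not overlap between the genotypes, while neutrophil, stromal and erythroid sums did. The summed level of 10 osteoclast markers was 2966, 8448 and 12373 CPM in libraries 2, 3 and 5, against 18416, 15143 and 39699 CPM in libraries 1, 4 and 6. All 10 were present in every library and below 0 in log2 fold change. With the naming batch as a second term 7 fell, against 5.60% of all tested genes. The library with the lowest osteoclast sum, 2, and the library with the highest, 6, were also those with the lowest and highest summed level of the members, at 2152 and 3680 CPM. The 10 macrophage markers summed to between 9022 and 9651 CPM in libraries labelled mutant, against 5810 to 7311 CPM in wild-type libraries, and 9 of 10 were above 0, of which 5 rose with the naming batch in the fit, as 3.08% of all tested genes did. The 8 neutrophil markers summed to 434, 532 and 1346 CPM in libraries 2, 3 and 5, against 282, 247 and 884 CPM in libraries 1, 4 and 6. All 7 tested genes were above 0, 4 rose in that fit, and 0 lay without overlap. The 8 stromal markers summed to 836, 2302 and 3636 CPM against 964, 1032 and 2679 CPM in the same order, with 6 of 8 above 0. Neutrophil and stromal sums were both highest in library 5 within the mutant label and in library 6 within wild type, on one side of the naming batch. The 6 lymphocyte markers summed to between 13.8 and 17.2 CPM against 6.09 to 8.40 CPM, with *Cd3g* at 0 in every library but 2 and *Cd3e* in every library but 4. The 5 erythroid markers summed to 59.9, 32.1 and 0.372 CPM in libraries 2, 3 and 5, against 12.4, 52.6 and 0 CPM in libraries 1, 4 and 6. All 5 were at 0 in library 6. The part of cell makeup in the values of the mitochondrial ribosome was not tested.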

How the data were processed

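RNA was sequenced as stranded poly(A) libraries in single reads, per the labels' protocols; TopHat2 2.0.13, Bowtie2 2.2.3, SAMtools 0.1.19 and build mm10 stand in the submitters' processing notes. The authors deposited raw counts per Ensembl gene; counting program and strand setting not given in the sources used here. Reads of overlapping genes can therefore not be told apart. The column names hold the genotype and not the labels' replicate numbers, and columns were used as unnumbered replicates of their genotype. Whether libraries come from separate animals is not stated, so p-values cover the spread between libraries, which may be technical.

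From 23264 rows, 60 repeats were dropped. After filterByExpr, 14040 genes with TMM factors entered the quasi-likelihood test of edgeR 4.0.16 under R 4.3.3. Genotype was the single term, with p-values adjusted by Benjamini-Hochberg over all of them and a threshold of 0.05. CPM are TMM-scaled. TPM used the APPRIS principal transcript of GENCODE M21, which holds 99.8% of the identifiers. Between libraries the biological coefficient of variation came to 40.9%, or 23.5% once the naming batch was in the fit. The test was also run on simulated counts, with changes larger than the members' median, and nothing about the members is drawn from it. Alternatives were the naming batch as a term, DESeq2 1.42.0, other scalings and filters, leaving out each library, libraries 1 to 4 alone and other lengths or subunit assignments.

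The members and all gene lists were chosen with earlier results of these data known. Members named with values were, per subunit, the 4 lowest and 4 highest fold changes and the 4 highest TPM, the opposite-sign members without overlap, the 8 smallest p with the naming batch, *Mrpl12*, *Mrpl44*, *Mrps12* and the *Mrps18* genes, and the untested one. Of other lists, up to 4 past the threshold in either fit were named, or the 2 with the highest CPM; *Slc5a3*, *Wdfy1*, *Ndufb5*, *Mrpl46*, *Mrps11*, *Ppargc1b* and others outside this rule were named after their values were seen.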

Additional observations from a re-analysis of the deposited data

Results flagged for a closer look

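*Mrpl49*, a large subunit protein gene with no bacterial counterpart, was picked out because every library moved one way on one side of the naming batch and the other way on the other side. Libraries 2 and 3, labelled mutant, both lay above libraries 1 and 4, wild type, while library 5, labelled mutant, lay below library 6, wild type. The log2 ratio of library 5 over library 6 was -0.14, and the log2 fold change in libraries 1 to 4 was 0.12. The edgeR fit of the difference itself had 1 library per genotype on one side, and nothing is drawn from it. No other member met this condition in every library. *Mrps26* also changed sign, at -0.50 for library 5 over library 6 and 0.16 in libraries 1 to 4, but its libraries 1 to 4 overlapped between genotypes. Groups of 3 libraries were too small for a search for single outlying libraries.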

How the results depend on the processing

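The count of members below 0 stayed between 67 and 73 under all alternatives run, and the subunit medians kept their sign. Leaving out 1 library at a time, the median log2 fold change ran from -0.40 to -0.23 for the large and from -0.46 to -0.28 for the small subunit, and their difference, large minus small, from 0.017 to 0.075. Members past the threshold numbered 0 with genotype only, 17 with the naming batch as a term, 1 without TMM factors, 1 with no filter on low counts, 7 in DESeq2 and 0 with any 1 library left out. Genes past it numbered 10, 1219 with the naming batch, 88 without TMM factors, 81 with no filter, 1402 in DESeq2, 1 within libraries 1 to 4, and 0 to 3 with 1 library left out; the cause was not tested.

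Single genes near 0 changed sign. With 1 library left out, *Mrpl27* ran from -0.095 to 0.15, *Mrpl49* from -0.013 to 0.14, *Mrps15* from -0.012 to 0.22, *Mrps12* from -0.53 to 0.15 and *Mrps26* from -0.28 to 0.16. Within libraries 1 to 4, *Mrpl52* was 0.0027, *Mrps12* 0.087 and *Mrps26* 0.16. No paired analysis was possible because the column names carry no replicate number of the labels. At 2 to 5 counts per library a difference in *Mrpl53* was not detectable, while the tested members averaged 15.4 CPM or more.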

Other observations

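Some genes near the mitochondrial ribosome stood apart from it, all picked out after their values were seen. *Rbfa*, an assembly factor of the small subunit, was higher in the libraries labelled mutant, at 73.2, 59.3 and 64.4 CPM, against 51.1, 49.2 and 48.8 CPM in wild-type libraries. The genotypes did not overlap, and its log2 fold change was 0.40 (standard error 0.107, edgeR adjusted p = 0.125, and 0.0771 with the naming batch). *Slirp*, which binds mitochondrial messages together with the product of *Lrpprc*, had 28.1, 25.4 and 28.4 CPM in libraries labelled mutant, against 27.4, 23.8 and 22.1 CPM in wild-type libraries, a log2 fold change of 0.16 (standard error 0.128, edgeR adjusted p = 0.579).

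*Lars2*, the mitochondrial leucyl-tRNA synthetase, followed the naming batch: it had 123, 195 and 1922 CPM in libraries 2, 3 and 5, labelled mutant, and 246, 283 and 2067 CPM in libraries 1, 4 and 6, wild type.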
